A study of Mus musculus with 6 samples.

Results

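The genes described here are 10 members of the Wnt receptor system of mouse small intestinal adenomas, namely the R-spondin ligands *Rspo1*, *Rspo2* and *Rspo3*, the R-spondin receptor *Lgr4*, the Wnt receptors *Fzd5* and *Fzd7*, the co-receptors *Lrp5* and *Lrp6*, and the secreted Frizzled-related genes *Sfrp1* and *Sfrp2*. They were chosen by name, and all 10 were found among the 48440 genes of the deposited tables. RNA-seq had been done on adenoma tissue of *ApcMin* mice with Paneth cells (PCs) and of *ApcMin* mice depleted of PCs, and the comparison asks whether adenomas of the 2 genotypes differed in the genes that receive, amplify or block a Wnt signal.

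Wnt ligands signal by bridging a Frizzled receptor to *Lrp5* or *Lrp6*, which leads to stabilization of β-catenin. R-spondins bind Lgr receptors and draw the ubiquitin ligases *Rnf43* and *Znrf3* away from the Frizzleds, so that more receptor stays at the cell surface. Secreted Frizzled-related proteins bind Wnt outside the cell. In the intestine, R-spondins, Sfrps and many Wnts come from the stroma, whereas PCs are an epithelial source of *Wnt3* at the crypt base. The *ApcMin* allele acts below the receptors, since loss of *Apc* stabilizes β-catenin without a ligand.

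Each genotype had 3 libraries, QC4, QC5 and QC6 for *ApcMin* and QC3, QC8 and QC10 for *ApcMin*, PCdel. PCdel mice carried Cre at the *Defa4* locus, a gene of the PC granule, and 1 *Rosa26* iDTA allele, from which Cre releases diphtheria toxin A in the PC lineage. The controls were littermates with the *Rosa26* iDTA allele and no Cre, so that *ApcMin* and iDTA were common to the 2 groups and Cre was not. The strain was C57BL/6, the age was above 42 days, and both sexes were used in the study. The labels do not say that the libraries of a group came from separate mice, so p-values measure the spread between these samples. Adenomas hold epithelium and stroma, and in such bulk tissue fewer cells of a type and less RNA per cell cannot be told apart.

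Levels are given in FPKM, which the authors had scaled both to the length of each gene and to the size of each library, so that levels can be compared between genes. The libraries were of similar depth, between 5.407 and 5.876 gigabases of aligned sequence. QC6 stood apart, since 46.1% of the 14240 genes with a mean of at least 1 FPKM were lowest in it. Epithelial markers were abundant in all libraries, with a summed level of 5404 to 7557 FPKM. All 8 PC markers were present in every library and had a negative log2 difference (PCdel minus *ApcMin*). In *Ang4* only the log2 difference was negative, since its mean was 547.4 FPKM in *ApcMin* and 553.6 FPKM in PCdel. In limma, 5 of the 8 had an unadjusted p under 0.05, beside 0.681% of the 14240 genes with PCdel lower, and 0 had an adjusted p under 0.05. The groups did not overlap in 3 (*Lyz1*, *Defa21* and *Defa22*), beside 1.54% of the 14240 genes with PCdel lower. These 3 are genes that the study itself chose in these samples. *Lyz1* ranged from 1672 to 2281 FPKM in *ApcMin* and from 950.3 to 1148 FPKM in PCdel. The differences below were tested with limma on log2(FPKM + 1), PCdel minus *ApcMin*, a scale on which changes of weakly expressed genes come out too small. Of the genes tested, 2 (0.0140%) passed a Benjamini-Hochberg adjusted p of 0.05 in limma, *Hist2h2aa1* and *Rab43*, and neither belonged to the genes or lists described here.

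The 10 genes covered a wide range of levels. Averaged over the 6 libraries, the receptor *Lgr4* (42.2 FPKM) and the co-receptor *Lrp5* (38.3 FPKM) were the most abundant. *Fzd5* (15.4 FPKM) and *Lrp6* (12.5 FPKM) followed, then *Sfrp1* (6.56 FPKM) and *Fzd7* (4.54 FPKM). *Rspo3* (1.08 FPKM), *Sfrp2* (0.984 FPKM), *Rspo1* (0.299 FPKM) and *Rspo2* (0.0177 FPKM) were the lowest. Neighbours in this order did not always differ beyond their spread. The library ranges of *Lgr4* and *Lrp5* overlapped, as did those of *Fzd5* and *Lrp6*, *Sfrp1* and *Fzd7*, *Rspo3* and *Sfrp2*, and *Sfrp2* and *Rspo1*. *Lgr4* exceeded *Lrp5* in 5 of 6 libraries and *Rspo3* exceeded *Sfrp2* in 3 of 6, while the order of every other neighbouring pair held in 6 of 6. The steps from *Lrp5* to *Fzd5*, from *Lrp6* to *Sfrp1*, from *Fzd7* to *Rspo3* and from *Rspo1* to *Rspo2* separated without overlap. The receptors and co-receptors thus stood above the R-spondin ligands in every library.

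**Figure D1:**
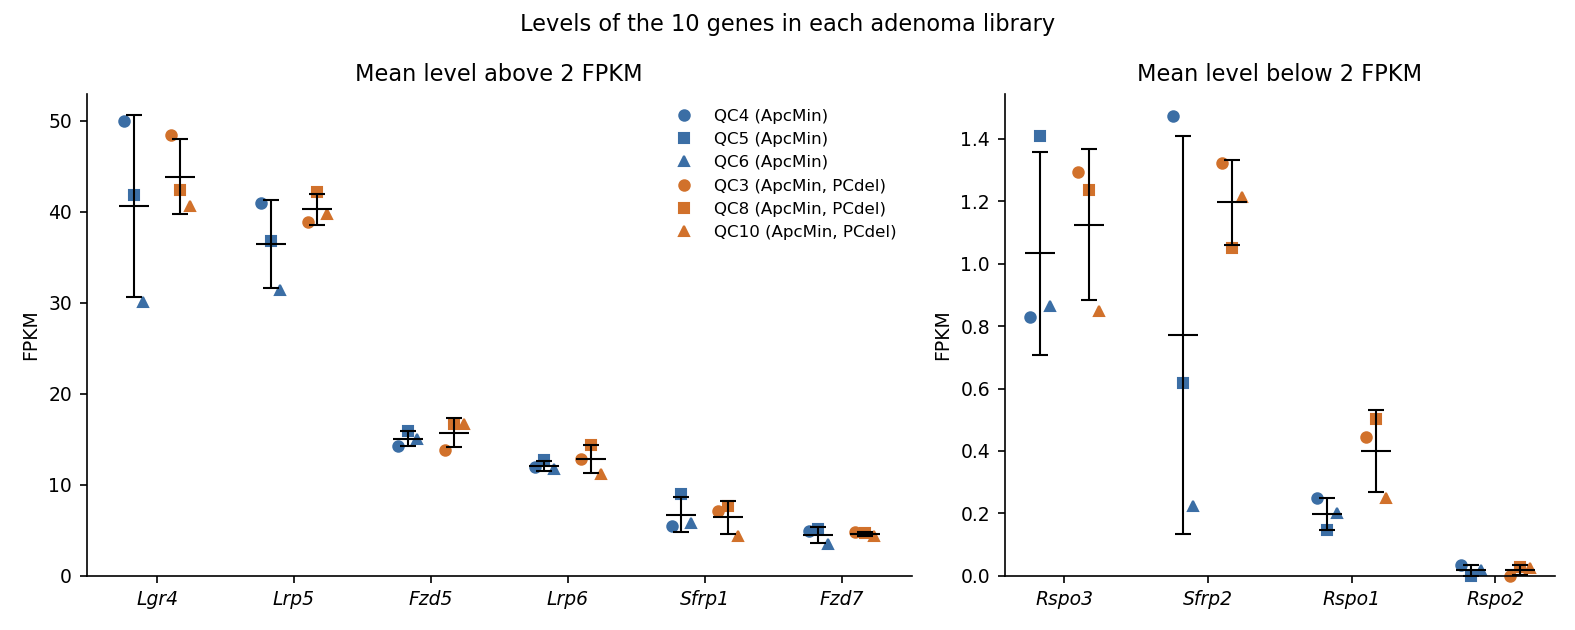
Levels in FPKM (y axis, linear, from 0) of the 10 genes (x axis) in each of the 6 libraries, with *ApcMin* in blue and *ApcMin*, PCdel in orange, and the mean ± SD of each group in black. The groups overlap in every gene other than *Rspo1*, whose 3 PCdel libraries lie above the 3 *ApcMin* libraries, the closest pair being 0.249 and 0.250 FPKM.

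Of the 10 genes, 7 had a mean of at least 1 FPKM and entered the test, and 3 (*Rspo1*, *Rspo2* and *Sfrp2*) did not. None of the 7 passed an adjusted p of 0.05 in limma, and 0 of 7 had an unadjusted p under 0.05. Over all genes tested, limma's unadjusted p was under 0.05 for 2.70% (higher in PCdel) and 0.681% (lower). Positive log2 differences were seen in 6 of the 7, as they were in 63.1% of all genes tested, so that this count says little about these genes in particular. Counted over all 10, the groups did not overlap in 1 gene, *Rspo1*, against 7.14% of the 27208 genes above 0 in at least 1 library. In the 14240 genes tested, 6.00% did not overlap with PCdel higher, 1.54% with PCdel lower, and 7.54% in either direction.

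Promoter sequence was taken from RefSeq (GRCm38.p6) as the 250 bases before each gene's start, and entries were found for 5 of the 10 genes. It is shown for the gene whose groups did not overlap (*Rspo1*, chr4:124986180-124986429, plus strand), for the most abundant gene (*Lgr4*, chr2:109917397-109917646, plus strand) and for the gene with the smallest relative spread over libraries (*Fzd5*, chr1:64737751-64738000, minus strand). Each reads 5′ to 3′ along the gene, with CCAAT and GGGCGG in capitals on either strand.

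Rspo1: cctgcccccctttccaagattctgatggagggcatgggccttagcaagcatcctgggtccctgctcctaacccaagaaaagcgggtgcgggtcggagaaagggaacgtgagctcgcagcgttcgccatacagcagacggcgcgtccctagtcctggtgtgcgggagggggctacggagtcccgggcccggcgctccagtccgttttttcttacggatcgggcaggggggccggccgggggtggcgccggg

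Lgr4: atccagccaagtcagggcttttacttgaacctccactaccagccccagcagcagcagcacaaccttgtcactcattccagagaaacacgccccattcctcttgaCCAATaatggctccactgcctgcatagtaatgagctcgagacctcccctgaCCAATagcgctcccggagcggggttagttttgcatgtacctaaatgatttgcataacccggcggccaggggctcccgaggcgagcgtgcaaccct

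Fzd5: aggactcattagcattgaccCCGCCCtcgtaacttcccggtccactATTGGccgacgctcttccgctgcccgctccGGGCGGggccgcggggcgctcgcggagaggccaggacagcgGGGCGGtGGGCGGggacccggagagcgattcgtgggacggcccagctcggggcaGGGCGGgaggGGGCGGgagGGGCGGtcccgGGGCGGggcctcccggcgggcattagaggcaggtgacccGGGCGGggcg

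These windows were unlike each other in composition. The *Rspo1* window held 22 CpG dinucleotides at 66.8% GC and neither of the motifs. The *Lgr4* window held 2 CCAAT and 10 CpG at 55.6% GC. The *Fzd5* window held 1 CCAAT, 9 GGGCGG and 32 CpG at 76.4% GC. Among all 32851 promoter windows of this length, 33.8% held CCAAT and 32.7% held GGGCGG, and the medians were 6 CpG and 52.4% GC. The TCF/LEF core CTTTGA, searched on either strand, was in 13.8% of all windows and in 0 of the 5.

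Among the R-spondin ligands, *Rspo3*, the main stromal R-spondin of the intestine, was the most abundant. *Rspo3* (ENSMUSG00000019880.9, chr10:29453109-29535867, minus strand) measured 0.828, 1.41 and 0.865 FPKM in QC4, QC5 and QC6, and 1.29, 1.24 and 0.847 FPKM in QC3, QC8 and QC10. The high libraries (QC5, QC3 and QC8) came from both genotypes, and the groups overlapped. The means were 1.03 ± 0.325 FPKM in *ApcMin* and 1.13 ± 0.243 FPKM in PCdel (SD, n = 3 each). The log2 difference was 0.07 (SE 0.16, 95% interval -0.31 to 0.45, limma adjusted p = 1.0, exact permutation p = 0.9).

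*Rspo1*, an R-spondin known from mesothelial and stromal cells, was the member whose groups did not overlap. *Rspo1* (ENSMUSG00000028871.7, chr4:124986430-125009099, plus strand) measured 0.249, 0.146 and 0.202 FPKM in QC4, QC5 and QC6, and 0.446, 0.501 and 0.250 FPKM in QC3, QC8 and QC10. QC3 and QC8 stood clear of the controls, whereas QC10 lay only just above QC4. The means were 0.199 ± 0.0514 FPKM in *ApcMin* and 0.399 ± 0.132 FPKM in PCdel (SD, n = 3 each), the latter being 200.5% of the former. In the fit of all 27208 genes without a filter, the log2 difference was 0.22 (SE 0.08, 95% interval 0.02 to 0.41) with an unadjusted limma p of 0.0337, an adjusted p of 0.991 and an exact permutation p of 0.1, the smallest that 3 against 3 libraries can give. In that fit 1 gene (0.00368%) passed an adjusted p of 0.05, 2.66% of genes had an unadjusted p under 0.05 with PCdel higher and 0.923% with PCdel lower, and 5.30% did not overlap with PCdel higher and 1.83% with PCdel lower. The depth behind *Rspo1* was thin, a mean read coverage of 0.781 to 2.27 along the transcript, and the separation was lost when each library was centred on its median gene, with a log2 difference of 0.17.

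*Rspo2*, another R-spondin, was close to the limit of detection. *Rspo2* (ENSMUSG00000051920.6, chr15:43020811-43170818, minus strand) measured 0.0356, 0 and 0.0178 FPKM in QC4, QC5 and QC6, and 0, 0.0269 and 0.0258 FPKM in QC3, QC8 and QC10. It was listed at 0 in 1 library of each genotype, and a difference between the groups was not detectable at this depth, since the coverage never exceeded 0.203.

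The make-up of the R-spondin family followed from these levels. Summed over *Rspo1* to *Rspo4*, the R-spondins came to between 1.15 and 1.59 FPKM in *ApcMin* and between 1.17 and 1.87 FPKM in PCdel, and the sums overlapped. *Rspo3* made up 66.3% to 88.4% of the sum. *Rspo1* made up 15.8% ± 5.89 in *ApcMin* (20.5%, 9.18% and 17.6%) and 24.4% ± 2.78 in PCdel (24.9%, 26.9% and 21.4%) (SD, n = 3 each), and these shares did not overlap, although the QC10 and QC4 shares were close.

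**Figure D2:**
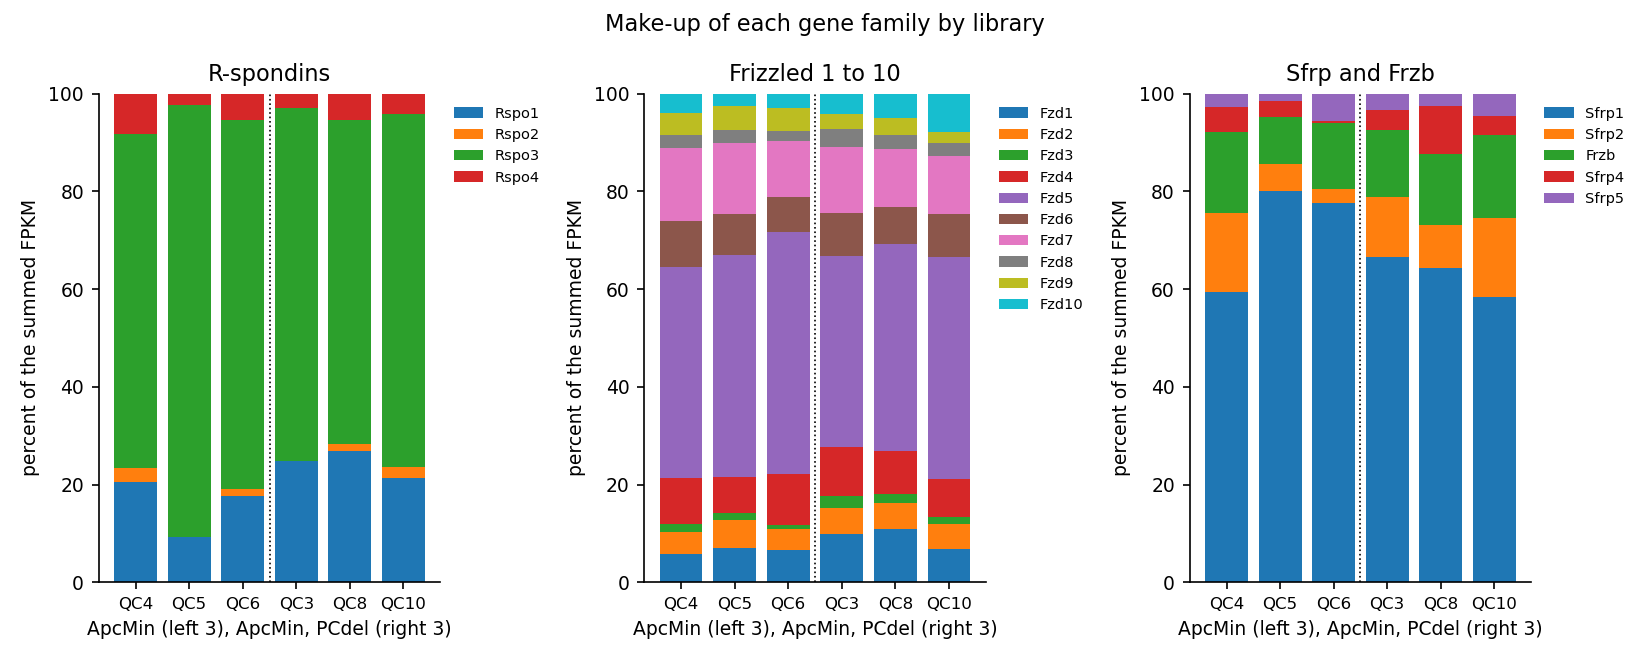
Make-up of the R-spondins, the Frizzleds and the Sfrp and *Frzb* genes, as the percent of each family's summed FPKM (y axis, from 0 to 100) in each library (x axis, *ApcMin* left of the dotted line and *ApcMin*, PCdel right of it). *Rspo3*, *Fzd5* and *Sfrp1* are the largest part of their family in all 6 libraries, at 66.3% to 88.4%, 39.1% to 49.4% and 58.3% to 80.1%.

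Mesothelial markers were set beside *Rspo1*, since adenomas may carry some of the outer covering of the gut. *Upk3b* measured 0.284, 0.10 and 0.285 FPKM in QC4, QC5 and QC6, and 0.645, 0.510 and 0.536 FPKM in QC3, QC8 and QC10. *Lrrn4* (0 to 0.119 FPKM in *ApcMin*, 0.194 to 0.324 FPKM in PCdel) and *Wt1* (0 to 0.0563 FPKM in *ApcMin*, 0.0603 to 0.0826 FPKM in PCdel) were likewise higher in PCdel without overlap. *Msln*, the most abundant of the 4, measured 3.89, 5.52 and 1.96 FPKM in *ApcMin* and 5.43, 3.31 and 3.90 FPKM in PCdel and overlapped. Thus 3 of the 4 mesothelial markers separated in the same direction as *Rspo1*, all 3 at levels below 1 FPKM. Over all 27208 genes of the fit without a filter, at any level, 5.30% separated with PCdel higher. The largest difference among the 3 markers, a log2 difference of 0.36 for *Upk3b*, had an adjusted limma p of 0.937. The summed level of the 4 ranged from 2.38 to 5.62 FPKM in *ApcMin* and from 4.08 to 6.48 FPKM in PCdel, which overlapped. The part of mesothelial cells in the *Rspo1* difference was not tested.

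**Figure D3:**
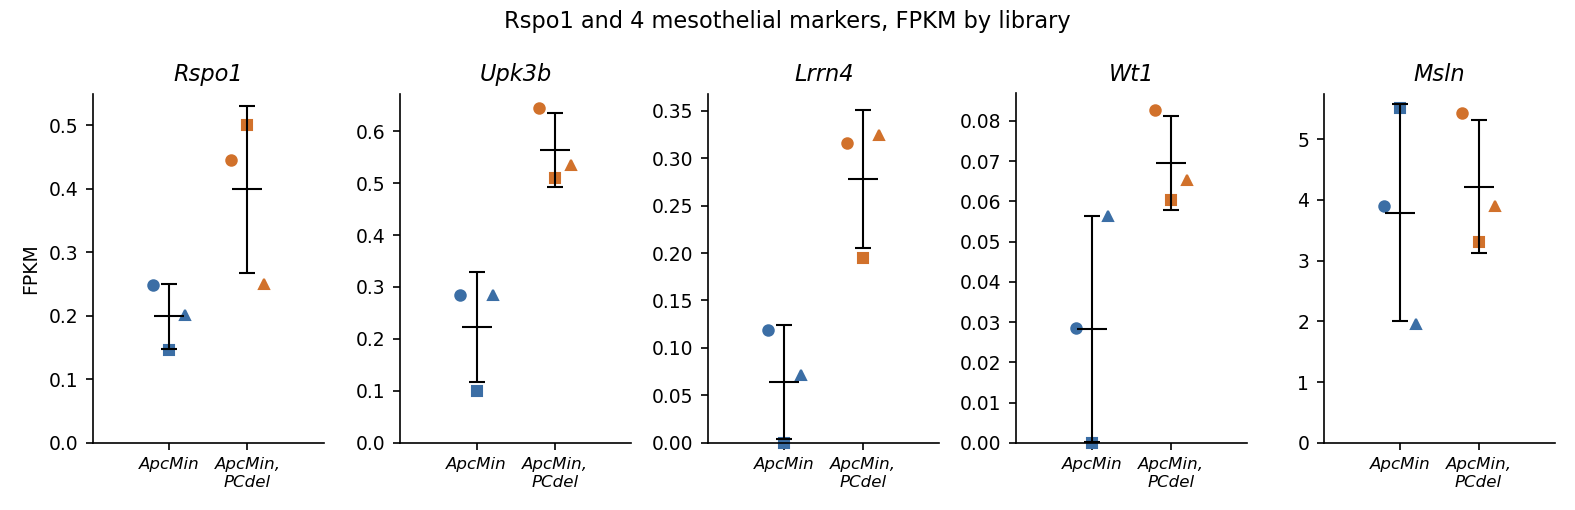
*Rspo1* and the mesothelial markers *Upk3b*, *Lrrn4*, *Wt1* and *Msln* in FPKM (y axes, each from 0 on its own scale) in the libraries of each genotype (x axis), with the mean ± SD in black. *Rspo1*, *Upk3b*, *Lrrn4* and *Wt1* separate by genotype, and *Msln* does not.

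*Lgr4*, the receptor through which R-spondins act on most of the epithelium, was the most abundant of the 10. *Lgr4* (ENSMUSG00000050199.13, chr2:109917647-110014257, plus strand) measured 50.0, 41.9 and 30.1 FPKM in QC4, QC5 and QC6, and 48.5, 42.3 and 40.7 FPKM in QC3, QC8 and QC10. Its highest and its lowest value were both in *ApcMin* libraries. The means were 40.7 ± 9.98 FPKM in *ApcMin* and 43.8 ± 4.12 FPKM in PCdel (SD, n = 3 each). The log2 difference was 0.13 (SE 0.19, 95% interval -0.33 to 0.59, limma adjusted p = 1.0, exact permutation p = 0.8). Without QC6 its sign turned, to -0.06. *Lgr4* made up 71.8% to 82.3% of the summed *Lgr4*, *Lgr5* and *Lgr6*. *Lgr5*, a marker of intestinal stem cells, gave most of the rest, and *Lgr4* exceeded it by 2.55 to 4.66 times.

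With all libraries, the groups overlapped in both *Fzd5* and *Fzd7*. Without QC3 the *Fzd5* groups separated with PCdel higher, with a log2 difference of 0.14. *Fzd5*, the Frizzled known for its role in PC maturation, was the most abundant of the 10 Frizzled genes. *Fzd5* (ENSMUSG00000045005.9, chr1:64730558-64737751, minus strand) measured 14.2, 15.9 and 15.1 FPKM in QC4, QC5 and QC6, and 13.8, 16.6 and 16.7 FPKM in QC3, QC8 and QC10. These are narrow ranges, with a coefficient of variation of 7.90% over the 6 libraries, and they overlapped. The log2 difference was 0.05 (SE 0.11, 95% interval -0.21 to 0.32, limma adjusted p = 1.0, exact permutation p = 0.6).

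*Fzd7*, a Frizzled of intestinal stem cells, had a mean of 4.54 FPKM. *Fzd7* (ENSMUSG00000041075.8, chr1:59482424-59486955, plus strand) measured 4.87, 5.09 and 3.52 FPKM in QC4, QC5 and QC6, and 4.77, 4.65 and 4.33 FPKM in QC3, QC8 and QC10. The PCdel values lay inside the *ApcMin* range. The log2 difference was 0.04 (SE 0.14, 95% interval -0.30 to 0.37, limma adjusted p = 1.0, exact permutation p = 1), and its sign turned without QC6 (-0.10). Without QC6 the *Fzd7* groups also separated, with PCdel lower. *Fzd5* exceeded *Fzd7* by 2.90 to 4.28 times.

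The Frizzleds *Fzd1* to *Fzd10* summed to 33.0 (QC4), 35.1 (QC5) and 30.5 FPKM (QC6) in *ApcMin* and 35.4, 39.2 and 36.7 FPKM in QC3, QC8 and QC10. The sums did not overlap, with means of 32.8 ± 2.32 FPKM in *ApcMin* and 37.1 ± 1.91 FPKM in PCdel (SD, n = 3 each), and the closest pair was QC5 and QC3 (35.1 and 35.4 FPKM). The sums of the R-spondins, of *Lgr4* to *Lgr6*, of *Lrp5* and *Lrp6* and of the Sfrp and *Frzb* genes overlapped. Neither *Fzd5* nor *Fzd7* separated by itself. *Fzd5* took 46.0% ± 3.19 of the sum in *ApcMin* and 42.3% ± 3.18 in PCdel, and *Fzd7* took 13.6% ± 1.79 and 12.4% ± 0.940. The *Fzd10* share was higher in PCdel without overlap (3.18% ± 0.659 against 5.62% ± 1.93) and the *Fzd9* share lower (4.67% ± 0.0915 against 3.06% ± 0.591). The shares of the other Frizzleds overlapped. Sums and shares of gene groups outside these families were not computed, so their separation has no background beside it.

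The co-receptors *Lrp5* and *Lrp6*, which bind Wnt together with a Frizzled, also overlapped between the genotypes. *Lrp5* (ENSMUSG00000024913.16, chr19:3584828-3686564, minus strand) measured 41.0, 36.8 and 31.4 FPKM in QC4, QC5 and QC6, and 38.9, 42.2 and 39.7 FPKM in QC3, QC8 and QC10. The PCdel libraries were close together and QC4 lay among them. The means were 36.4 ± 4.82 FPKM in *ApcMin* and 40.3 ± 1.70 FPKM in PCdel (SD, n = 3 each), with a log2 difference of 0.15 (SE 0.12, 95% interval -0.14 to 0.44, limma adjusted p = 1.0, exact permutation p = 0.3). Without QC4 the *Lrp5* groups separated, with a log2 difference of 0.24 and a limma adjusted p of 0.981. The share of all genes that separated in that fit is not given here.

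*Lrp6* (ENSMUSG00000030201.15, chr6:134446476-134566965, minus strand) measured 11.9, 12.7 and 11.7 FPKM in QC4, QC5 and QC6, and 12.9, 14.4 and 11.2 FPKM in QC3, QC8 and QC10. The highest and the lowest of these values were both in PCdel libraries. The log2 difference was 0.07 (SE 0.11, 95% interval -0.20 to 0.35, limma adjusted p = 1.0, exact permutation p = 0.6), and it was -0.0080 without QC8. Without QC10 the *Lrp6* groups separated with PCdel higher, with a log2 difference of 0.16. *Lrp5* exceeded *Lrp6* by 2.69 to 3.54 times, and its share of the pair was 74.9% ± 2.37 in *ApcMin* and 75.9% ± 1.82 in PCdel (SD, n = 3 each).

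*Sfrp1*, a secreted Wnt antagonist of the stroma, was the only tested member with a lower mean in PCdel. *Sfrp1* (ENSMUSG00000031548.7, chr8:23411502-23449632, plus strand) measured 5.43, 8.94 and 5.78 FPKM in QC4, QC5 and QC6, and 7.16, 7.70 and 4.35 FPKM in QC3, QC8 and QC10. QC5 was the highest library and QC10 the lowest, and the groups overlapped through most of their range. The means were 6.72 ± 1.93 FPKM in *ApcMin* and 6.4 ± 1.80 FPKM in PCdel (SD, n = 3 each). The log2 difference was -0.06 (SE 0.24, 95% interval -0.65 to 0.52, limma adjusted p = 1.0, exact permutation p = 1), the widest interval of the 7 tested members. It turned positive without QC5 (0.13) and without QC10 (0.15).

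*Sfrp2*, another secreted Frizzled-related gene, varied most of the members above 0 in all libraries. *Sfrp2* (ENSMUSG00000027996.13, chr3:83766321-83774316, plus strand) measured 1.47, 0.618 and 0.225 FPKM in QC4, QC5 and QC6, and 1.32, 1.05 and 1.21 FPKM in QC3, QC8 and QC10. The *ApcMin* libraries spanned a 6.55-fold range that enclosed all PCdel values. The means were 0.772 ± 0.638 FPKM in *ApcMin* and 1.2 ± 0.137 FPKM in PCdel (SD, n = 3 each). In the fit without a filter the log2 difference was 0.37 (SE 0.26, 95% interval -0.28 to 1.01, unadjusted limma p = 0.208, adjusted p = 0.991, exact permutation p = 0.4). QC4 decided the overlap, since the groups separated without it (log2 difference 0.64, adjusted p = 0.949 in limma), whereas without QC6 the difference fell to 0.13. *Sfrp1* made up 58.3% to 80.1% of the summed Sfrp and *Frzb* genes.

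**Figure D4:**
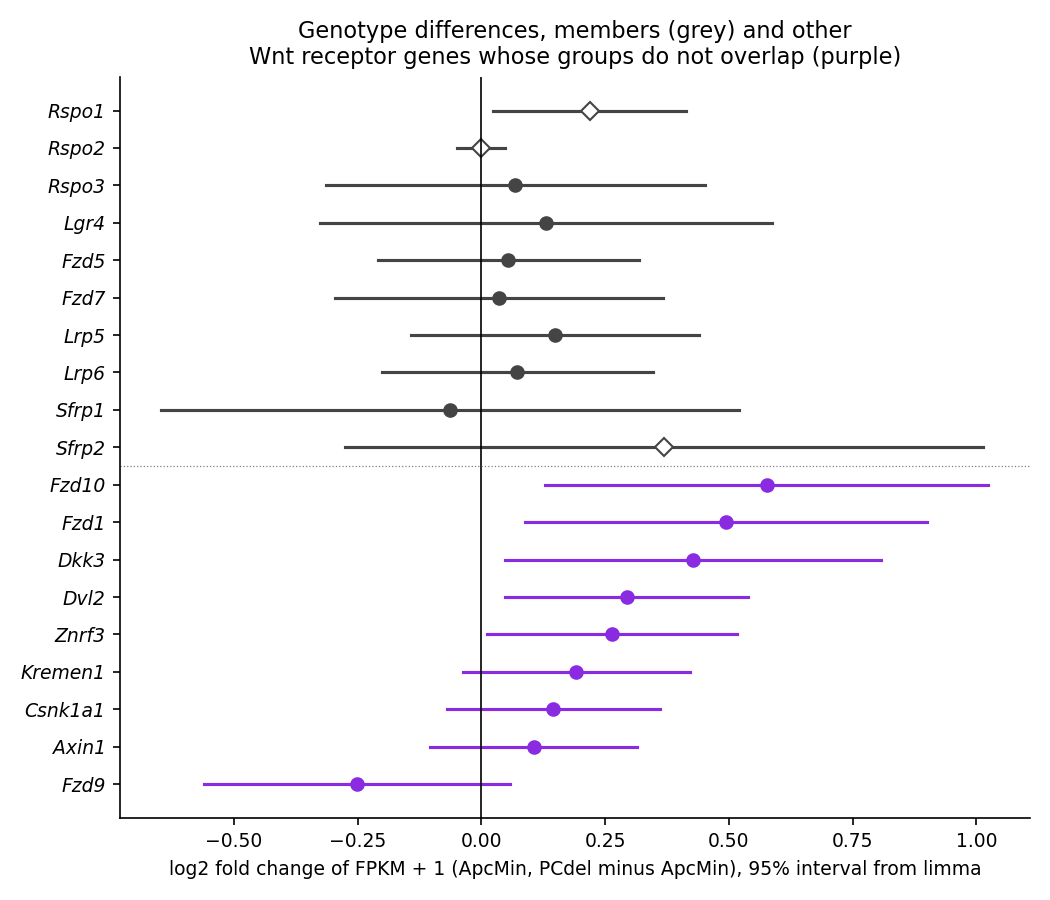
Log2 difference of FPKM + 1 between the genotypes (x axis, PCdel minus *ApcMin*) with its 95% interval from limma, for the 10 members (grey, open diamonds for the 3 below a mean of 1 FPKM) and for the other tested genes of the Wnt receptor system whose groups did not overlap (purple). The intervals of all members other than *Rspo1* cross 0, as do those of *Kremen1*, *Csnk1a1*, *Axin1* and *Fzd9* among the purple genes, which are shown because they separated and whose point estimates are positive other than that of *Fzd9*.

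Some members shared the libraries in which they were highest. The 3 highest values of *Rspo3* were in QC5, QC3 and QC8, which hold both genotypes, and these libraries were taken as the reference. Of the other tested members, *Sfrp1* and *Lrp6* were highest in the same 3, and *Lgr4*, *Fzd5*, *Fzd7* and *Lrp5* were not. The same 3 libraries were the highest in 8.71% of all genes tested. They were also the highest in 5 of 10 tested fibroblast markers (*Col1a1*, *Col1a2*, *Col3a1*, *Lum* and *Pdgfrb*), in 3 of 8 smooth muscle markers (*Acta2*, *Tagln* and *Synm*), in 1 of 8 markers of subepithelial telocytes and trophocytes (*Grem1*), in 1 of 8 endothelial markers (*Vwf*) and in 0 of 8 epithelial markers. *Col1a1*, a fibrillar collagen, measured 36.3, 40.7 and 21.6 FPKM in QC4, QC5 and QC6, and 47.6, 44.2 and 24.2 FPKM in QC3, QC8 and QC10. This order was noticed in these values and then counted, and its origin was not tested.

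Of 6 ratios computed between members, or between *Lgr4* and *Lgr5*, *Sfrp1* over *Rspo3* was the 1 whose groups did not overlap. It was 6.56, 6.35 and 6.68 in QC4, QC5 and QC6, and 5.54, 6.23 and 5.14 in QC3, QC8 and QC10. The ratios were lower in PCdel, with means of 6.53 ± 0.169 and 5.64 ± 0.551 (SD, n = 3 each), although QC8 and QC5 were close. Neither gene separated by itself. Ratios of other gene pairs were not computed, so this count of 1 in 6 has no background beside it. The ratio of *Lrp5* to *Lrp6* ranged from 2.69 to 3.54 without separating, while *Lgr4* over *Rspo3* ranged from 29.7 to 60.3 and *Sfrp1* over *Sfrp2* from 3.58 to 25.7. Other members, *Lgr4*, *Lrp5*, *Fzd7* and *Sfrp2*, were lowest in QC6.

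**Figure D5:**
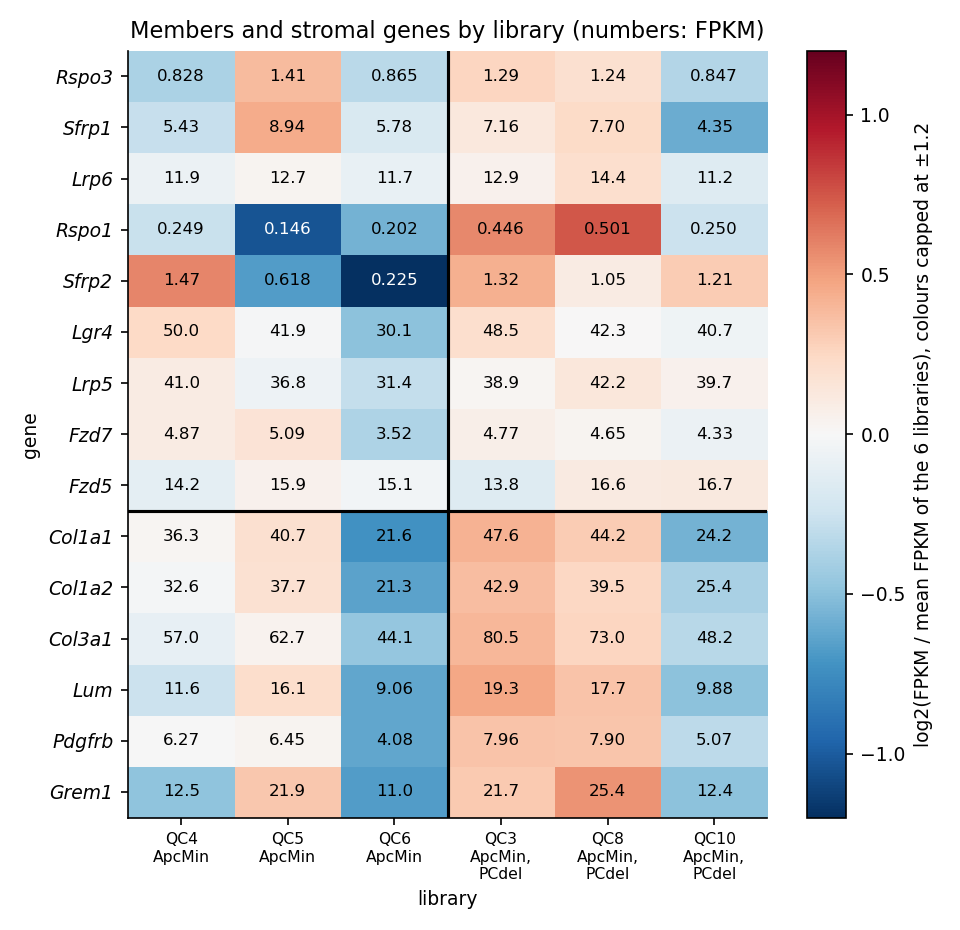
FPKM (numbers) of 9 members and of 6 stromal genes that have their 3 highest values in QC5, QC3 and QC8 (rows) in each library (columns), coloured by log2 of FPKM over the gene's mean of the 6 libraries. The stromal genes below the line were chosen for this order. It was seen in 5 of 10 tested fibroblast markers and in 1 of 8 tested telocyte and trophocyte markers. *Rspo3*, *Sfrp1* and *Lrp6* are highest in the same 3 libraries, whereas *Lgr4*, *Lrp5*, *Fzd7* and *Sfrp2* are lowest in QC6.

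Profiles most like those of a ligand, a receptor and an antagonist were found by the root mean square distance between standardized log2(FPKM + 1) profiles over the 6 libraries, among 14239 genes. Nearest to *Rspo3* were *Csgalnact2* (distance 0.136), *Hand2* (0.165) and *Mthfd2l* (0.17), against a median distance of 1.16 over all genes. *Sfrp1* ranked 62 from *Rspo3* at a distance of 0.359, and *Rspo3* ranked 54 from *Sfrp1*. Nearest to *Sfrp1* were *Rsrc1* (0.116), *Ppp2r3d* (0.134) and *Bace1* (0.178). Nearest to *Fzd5* were *Pex11g* (0.176), *Lgalsl* (0.198) and *Git1* (0.201). With 6 points per profile such distances are descriptions of these libraries.

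Markers of the cell types that could carry these genes moved as follows. Of 10 tested fibroblast markers, 2 (*Dcn* and *Pdgfra*) were higher in PCdel without overlap, beside 6.00% of all genes tested. Log2 differences were positive in 8 of the 10, with a median over the list of 0.27. They were negative in 2, *Fbln1* (53.1 ± 13.4 FPKM in *ApcMin* and 41.3 ± 3.14 FPKM in PCdel, SD, n = 3 each) and *Cd34* (11.3 ± 2.60 and 11.1 ± 3.0 FPKM). *Mfap5* and *Pi16*, below the filter, also had lower means in PCdel. The summed level of the list ranged from 271.8 to 344.1 FPKM in *ApcMin* and from 294.3 to 444.1 FPKM in PCdel. Of 8 tested markers of subepithelial telocytes and trophocytes, 2 (*Foxl1* and *Bmp5*) were higher without overlap, beside 6.00% of all genes tested. So was *Gli1* below the filter, and the sums (140.1 to 197.3 and 174.1 to 212.5 FPKM) overlapped. In limma, 3 of the 8 had an unadjusted p under 0.05 with PCdel higher, beside 2.70% of all genes tested. None of the 8 passed an adjusted p of 0.05. *Foxl1*, the defining telocyte transcription factor, measured 1.29, 0.967 and 0.815 FPKM in *ApcMin* and 1.73, 1.40 and 1.46 FPKM in PCdel. None of the 8 smooth muscle, 8 endothelial, 8 epithelial and 6 immune markers tested separated, nor did the 1 tested glial marker, and limma passed none of them at an adjusted p of 0.05 or an unadjusted p of 0.05. All tested telocyte and trophocyte, smooth muscle and immune markers had positive log2 differences, with medians of 0.33, 0.33 and 0.35. Positive differences were also seen in 5 of 8 endothelial and 5 of 8 epithelial markers (medians 0.09 and 0.02), while the glial marker was negative. Over all genes tested, 63.1% were positive, with a median of 0.04. The part of stromal content in the members' levels was not tested.

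The rest of the Wnt receptor system was followed through 5 lists of 52 genes, of which 39 were tested. None passed an adjusted p of 0.05 in limma. With PCdel higher, 5 had an unadjusted limma p under 0.05, beside 2.70% of all genes tested. With PCdel lower, 0 did, beside 0.681%. In 8 of the 39 (20.5%) the groups did not overlap with PCdel higher, beside 6.00% of all genes tested. In 1 they did not overlap with PCdel lower, beside 1.54%. Log2 differences were positive in 31 and negative in 8, and their median over the 39 was 0.12, beside 0.04 over all genes tested. Without QC6, in which 46.1% of all genes were lowest, the median of the lists was 0.02. The median over all genes without QC6 is not given here, so this value cannot be set against 0.04. In the same fit 8 of 40 list genes separated with PCdel higher and 3 with PCdel lower, and groups of fewer libraries separate more easily. The lists are counted one by one in what follows.

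Among the other genes of the R-spondin axis, 3 of 5 were tested, with a median log2 difference of 0.24 that became 0.09 without QC6 and 0.04 over all 5 with no filter. *Znrf3*, a ubiquitin ligase that removes Frizzleds from the surface, measured 5.25, 4.69 and 4.23 FPKM in QC4, QC5 and QC6, and 5.67, 6.10 and 5.80 FPKM in QC3, QC8 and QC10. Its groups did not overlap (log2 difference 0.26, SE 0.11, limma adjusted p = 1.0). *Rnf43*, the partner ligase of *Znrf3* and the most abundant of the list, measured 12.2 ± 2.36 FPKM in *ApcMin* and 14.5 ± 1.73 FPKM in PCdel (SD, n = 3 each) and overlapped. *Lgr5* measured 12.0 ± 2.90 and 12.5 ± 3.94 FPKM.

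Among the other Frizzled-type receptors, 7 of 9 were tested, with a median log2 difference of 0.19 that became 0.12 without QC6. *Fzd1* measured 1.90, 2.46 and 1.99 FPKM in QC4, QC5 and QC6, and 3.51, 4.26 and 2.53 FPKM in QC3, QC8 and QC10 (log2 difference 0.49, SE 0.17, limma adjusted p = 1.0). *Fzd10* measured 1.29, 0.915 and 0.925 FPKM in *ApcMin* and 1.46, 1.93 and 2.87 FPKM in PCdel (log2 difference 0.58, SE 0.19, limma adjusted p = 1.0). Both were higher in PCdel without overlap, and both lay near the lower end of the tested range. *Fzd9*, at 1.51, 1.67 and 1.42 FPKM in *ApcMin* and 1.13, 1.40 and 0.886 FPKM in PCdel, was the only gene of the 39 that separated with PCdel lower. *Smo*, the Hedgehog transducer of the Frizzled class, was the most abundant of the list, at 6.65 ± 0.939 and 7.70 ± 0.400 FPKM, and overlapped.

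Of the other Wnt receptors and co-receptors, 9 of 11 were tested, with a median log2 difference of 0.11 that became -0.03 without QC6. *Kremen1*, a receptor for Dickkopf proteins, separated with 5.46, 5.44 and 4.81 FPKM in *ApcMin* and 6.36, 5.96 and 6.03 FPKM in PCdel (log2 difference 0.19). *Sdc1*, an epithelial heparan sulfate proteoglycan, was the most abundant, at 112.7 ± 27.2 FPKM in *ApcMin* and 121.0 ± 13.9 FPKM in PCdel (SD, n = 3 each), and overlapped.

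Of the other secreted Wnt antagonists, 6 of 13 were tested, with a median log2 difference of 0.08 that became -0.20 without QC6. *Dkk1*, *Dkk4*, *Sost* and *Cer1* were listed at 0 in all 6 libraries. *Dkk3*, a divergent Dickkopf family member, separated with 21.6, 17.2 and 14.1 FPKM in *ApcMin* and 23.0, 22.7 and 25.5 FPKM in PCdel (log2 difference 0.43, SE 0.16, limma adjusted p = 1.0). *Notum*, a secreted enzyme that strips the lipid from Wnts, was the most abundant, at 84.9, 58.8 and 23.9 FPKM in *ApcMin* and 56.9, 77.5 and 53.2 FPKM in PCdel. *Notum* overlapped between the genotypes, and its lowest value was in QC6.

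Of the genes that act next to the receptors or in Wnt secretion, 14 of 14 were tested, with a median log2 difference of 0.10 that became 0.03 without QC6. *Dvl2*, a Dishevelled scaffold, measured 2.28, 2.31 and 2.54 FPKM in *ApcMin* and 3.04, 3.43 and 2.95 FPKM in PCdel (log2 difference 0.29, SE 0.10, limma adjusted p = 1.0). *Axin1*, the scaffold of the destruction complex, measured 14.2, 15.3 and 14.6 FPKM in *ApcMin* and 16.2, 15.4 and 16.1 FPKM in PCdel. *Csnk1a1*, a kinase that primes β-catenin and the most abundant gene of the list, measured 83.2, 82.6 and 84.2 FPKM in *ApcMin* and 94.98, 91.3 and 90.5 FPKM in PCdel. These 3 separated with PCdel higher, and the *Axin1* groups were only just apart.

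*Sfrp1* shares chromosome 8 with the *Defa4* locus that carries Cre, and its start lies 1.68 Mb beyond the last of the 11 Defa genes of the tables. Cre had been inserted there in embryonic stem cells of another mouse strain. Within 5 Mb of *Sfrp1*, 87 genes were tested, and the groups did not overlap in 26.4%, beside 7.42% elsewhere in the genome. With the genes between the first and the last Defa gene left out, 58 genes remained and 13.8% did not overlap, 6 with PCdel higher and 2 with PCdel lower. Within 2 Mb, a window that reaches the nearest Defa genes, 39 genes were tested and 20.5% did not overlap, 8 with PCdel lower and 0 with PCdel higher. Within 1.5 Mb, short of the last Defa gene, 24 genes were tested. Of these, 0 separated and 0 had an unadjusted limma p under 0.05. Within 10 Mb, 109 genes were tested and 22.0% did not overlap. No gene in these windows passed an adjusted p of 0.05 in limma. Of the 87, 18 had an unadjusted limma p under 0.05 with PCdel lower and 5 with PCdel higher. Over all genes tested, the shares were 0.681% and 2.70%. Of the 58 genes that remained without the Defa interval, 0 had such a p with PCdel lower and 5 with PCdel higher. Whether the Cre allele's surroundings touched the *Sfrp1* value was not tested.

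Sequence shared with other genes could move reads between entries for 3 members. Of the 31-base words in *Fzd5* transcripts, 17.2% also occur in other genes, most of them in *Gm38058*, which overlaps *Fzd5* on the other strand and was listed at 0.00694 to 0.0749 FPKM. For *Sfrp2* the share was 13.7%, with *Gm26771* on the other strand (0 to 0.274 FPKM), and for *Rspo3* it was 12.2%, with *Gm48159*. In the other members the share was at most 1.64%, and it was 0 in *Lgr4*. Whether counting used the strand is not given in the sources used here, so the *Fzd5* and *Sfrp2* values are uncertain to that extent. No strand or level is given here for *Gm48159*, and its part in the *Rspo3* value was not tested.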

How the data were processed

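Adenoma RNA of 3 *ApcMin* and 3 *ApcMin*, PCdel libraries was prepared with the TruSeq RNA kit and sequenced on a HiSeq2500, and the study's methods name CLC Genomics Workbench 7 and a normalization in MatLab whose settings they do not give. The authors deposited 1 table per library with FPKM (normalized by the authors to the length of a gene and the size of a library), TPM (scaled by the authors to a sum of 1000000) and read coverage (not scaled). The program and annotation behind the tables are not given in the sources used here. Positions of 8 of the 10 genes match GENCODE's GRCm38 annotation, and those of *Rspo2* and *Rspo3* differ slightly at the ends.

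Separate entries of a gene were summed. The 14240 genes whose mean FPKM was 1 or more were compared with limma 3.58.1 in R 4.3.3 (lmFit, eBayes with trend) on log2(FPKM + 1), with Benjamini-Hochberg adjustment over all of them and a threshold of 0.05. Members below that mean were taken from the same fit on all 27208 genes above 0. For each member an exact permutation test (two-sided, over the 6 libraries) was added, whose p cannot go below 0.1. Coverage was used for depth only, and no counting interval was derived, since no read counts were used here. The limma step was tested on simulated data.

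The members and gene lists were chosen with earlier results of these data known. Named are all members, the genes of each pathway list that passed the threshold, separated or were the most abundant, marker genes that separated, and the 3 nearest profiles of *Rspo3*, *Fzd5* and *Sfrp1*. *Col1a1*, the genes that share the library order of *Rspo3*, and *Lgr5*, *Msln*, *Fbln1*, *Cd34*, *Mfap5*, *Pi16* and *Ang4* were named after their values were seen. Alternatives were TPM, quantile normalization, a pseudocount of 0.1, a minimum mean of 5 FPKM, no filter, median centring, eBayes without trend, array quality weights and each library left out.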

Additional observations from a re-analysis of the deposited data

How the results depend on the processing

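No member passed an adjusted p of 0.05 in limma under any alternative. *Rspo1* stayed higher in PCdel (log2 difference 0.17 to 0.72, adjusted p 0.409 to 1.0), as did *Sfrp2* (0.13 to 0.85) and *Lrp5* (0.05 to 0.24). Signs turned for members close to 0. With TPM, *Rspo2* was 0.0013. With array quality weights, which give QC6 the lowest weight (0.237), *Rspo2* was 0.0057, *Rspo3* -0.015, *Fzd5* -0.0022 and *Fzd7* -0.074. With quantile normalization, *Rspo3* was -0.0070 and *Fzd7* -0.028, and with median centring *Fzd7* was -0.014. When 1 library at a time was left out, the log2 difference ranged from -0.013 to 0.012 for *Rspo2*, from -0.0025 to 0.20 for *Rspo3*, from -0.065 to 0.29 for *Lgr4*, from -0.10 to 0.12 for *Fzd7*, from -0.0080 to 0.16 for *Lrp6* and from -0.20 to 0.15 for *Sfrp1*. It turned sign without QC6 for *Lgr4* and *Fzd7*, without QC4 for *Rspo3*, without QC8 for *Lrp6*, without QC5 or QC10 for *Sfrp1*, and without QC4 or QC3 for *Rspo2*. Groups that overlapped with all libraries separated in some fits with 1 library left out. PCdel was higher for *Fzd5* without QC3, for *Lrp5* and *Sfrp2* without QC4, and for *Lrp6* without QC10. It was lower for *Fzd7* without QC6. The share of all genes that separated in these fits is not given here. The cause was not tested.

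Over all genes, limma passed 2, and 1 with no filter, 1 with median centring, and 1 to 5 with each library left out (5 without QC4). The 39 pathway genes gave 0 calls under all 14 alternatives, while those that separated with PCdel higher numbered 5 (minimum mean of 5 FPKM, 23 genes tested) to 13 (without QC10) and those with PCdel lower 0 to 3. Groups of fewer libraries separate more easily: within 5 Mb of *Sfrp1* the percent of genes without overlap was 26.4 with all libraries, 32.2 to 41.4 with 1 library left out, and 13.8 with the defensin interval left out, an alternative added after the data were seen. No paired analysis was possible because the replicate numbers follow accession order and pair no samples. With 3 libraries a group and no read counts, small changes of *Rspo1*, *Rspo2* and *Sfrp2* were not detectable at this depth. The 95% limma intervals of the tested members left room for small changes as well. The narrowest ran from -0.21 to 0.32 (*Fzd5*) and the widest from -0.65 to 0.52 (*Sfrp1*).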
